A study of Mus musculus with 9 samples.

Results

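Of the 18738 genes in the deposited expression table, 9 chosen genes of retinoic acid synthesis, carriage, breakdown and reception are described here. All 9 were found by symbol: Aldh1a1, Aldh1a2, Aldh1a3, Dhrs3, Crabp2, Rara, Rarb, Cyp26a1 and Cyp26b1. They are not all such genes in the table, and others, among them Rarg and Cyp26c1, are given further below. RNA-seq was done on heart cardiomyocytes of WT (wild-type) C57BL/6J offspring collected at P0, the day of birth. Diet was assigned to the pregnant mothers at random and kept from fertilization to birth: ND is the normal diet, sHFD the slight high-fat diet and HFD the high-fat diet. Each diet had 3 libraries, no group carried a transgene or a drug, and the labels name neither the fat content of the diets nor the litter or number of pups behind a library. Values are in TPM, a transcript level per length scaled to a fixed library total, so that read depth cannot be recovered. The stated question is which transcriptional pathways of the HFD heart might go with defective cardiomyocyte proliferation.

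Retinoic acid is made from vitamin A. Retinol is first oxidized to retinaldehyde, a step that Dhrs3 reverses, and the ALDH1A enzymes then oxidize retinaldehyde to retinoic acid irreversibly. Crabp2 carries retinoic acid to the nucleus, where receptors of the RAR family, paired with RXR receptors, bind direct repeats in DNA, and the CYP26 enzymes oxidize it for removal. In the developing heart Aldh1a2 is best known from the epicardium, the outer cell layer, and retinoic acid from there is known for its part in growth of the ventricular wall. Cyp26a1, Rarb and Dhrs3 are textbook retinoic acid target genes, so that these members are both parts and readouts of the pathway.

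Cyp26a1 stood apart among the 9 genes, with levels that stepped down from ND to sHFD to HFD. Aldh1a2 was lowest in HFD, at 0.522 times its ND mean and 0.377 times its sHFD mean. Of the 9 genes, 2 passed an adjusted p of 0.05 in HFD against ND, both lower in HFD, where 10.9% of the 13655 genes tested passed, 9.59% as lower and 1.28% as higher. At an unadjusted p under 0.05 there were 4 of 9, beside 29.8% of all genes. In HFD against sHFD 3 passed, 2 lower and 1 higher, beside 34.2% of all genes, 23.9% lower and 10.3% higher. At an unadjusted p under 0.05 these were 4 of 9, beside 45.6%. None of the 9 passed limma's test in sHFD against ND, where 1 gene of the whole table did (0.00732%). The count of 2 in HFD against ND became 0 without HFD replicate 2 or ND replicate 3, 1 without HFD replicate 1, ND replicate 2 or sHFD replicate 3, and 3 without HFD replicate 3. The count of 3 in HFD against sHFD became 1 without HFD replicate 1 or 2, 5 without ND replicate 1, and 2 without any of the sHFD libraries in turn. Differences below are on the scale of log2(TPM + 1), which understates those of low genes, with Benjamini-Hochberg adjusted p from limma over all genes tested. Each pair of comparisons shares a diet, so they are not independent of each other.

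Counted by libraries that did not overlap between diets, 4 of the 9 genes were apart in HFD against ND, all lower in HFD (Cyp26a1, Cyp26b1, Aldh1a2 and Dhrs3). Of all genes 27.9% were apart there, and 22.9% of all genes were apart and lower in HFD. In sHFD against ND 3 were apart, beside 9.4% of all genes. Cyp26a1 and Cyp26b1 were lower in sHFD (4.9% of all genes) and Aldh1a3 higher (4.5%). In HFD against sHFD 5 were apart, beside 51.3%. Cyp26a1, Aldh1a2 and Aldh1a3 were lower in HFD (34.7%), and Rara and Crabp2 higher (16.6%).

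**Figure D1:**
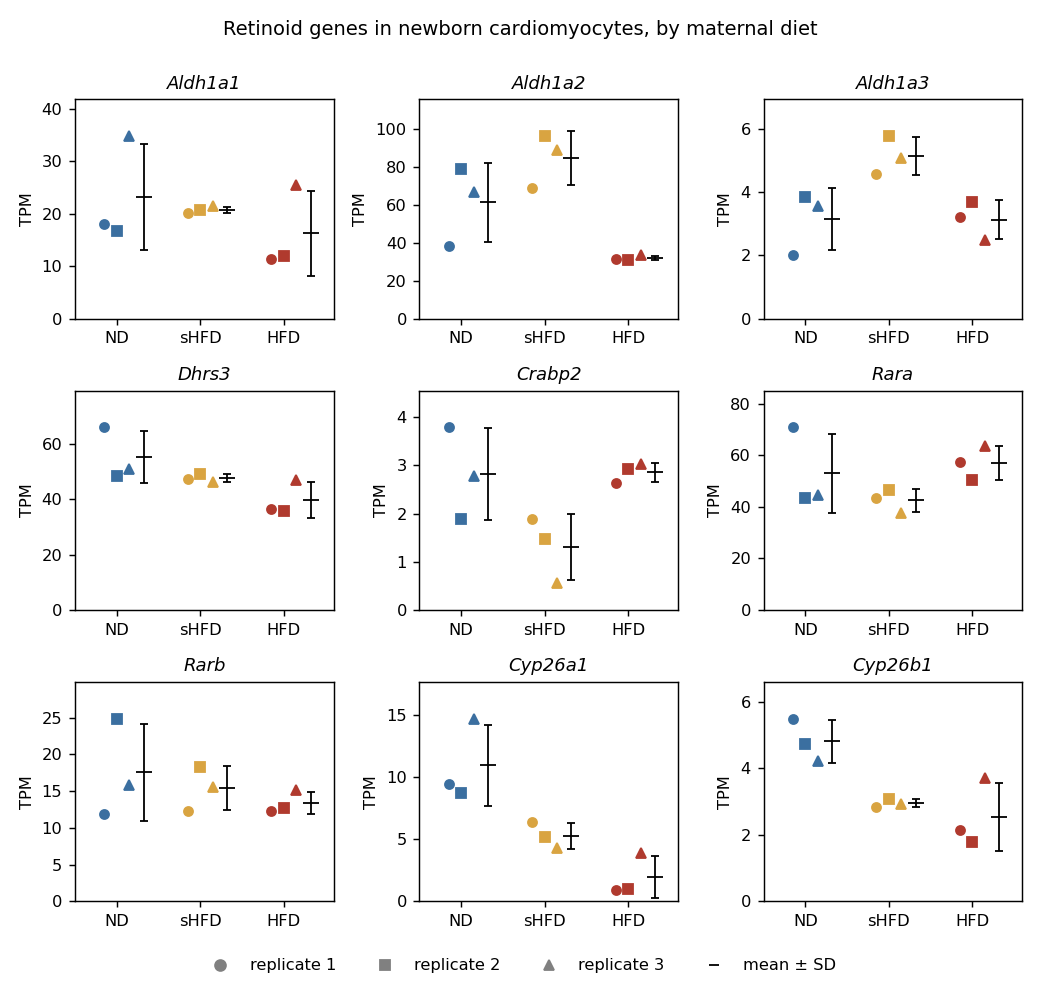
TPM (vertical axes, each from 0) of the 9 retinoid genes in the 9 libraries by maternal diet, with coloured points for libraries and black bars for mean ± SD of 3. Cyp26a1 has no overlap between any pair of diets, Aldh1a2 is lowest in the 3 HFD libraries at 30.9 to 33.3 TPM, and Rarb overlaps throughout.

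The libraries carried cardiomyocyte genes at high levels beside genes of other heart cells. The summed TPM of 10 cardiomyocyte genes (Tnnt2, Tnni3, Actc1, Myh6, Myl2, Myl3, Ryr2, Pln, Actn2 and Ttn) was 23396 to 41305 in ND, 41502 to 56164 in sHFD and 28156 to 34992 in HFD. That of 10 fibroblast genes was 7820 to 11741 over all libraries, and that of 10 endothelial and endocardial genes 3046 to 4635. Immune cell genes summed to 439 to 594 TPM in ND, 332 to 423 in sHFD and 239 to 286 in HFD. All 10 of them passed as lower in HFD than in ND, beside 9.59% of all genes. Smooth muscle and pericyte genes, 10 in number, summed to 1388 to 1652 TPM in ND, 1775 to 2573 TPM in sHFD and 1494 to 1728 TPM in HFD. Of these, 4 were lower and 1 higher in HFD than in ND, beside 9.59% and 1.28% of all genes, with a median of -0.58. In HFD against sHFD 7 were lower and 1 higher, beside 23.9% and 10.3% of all genes. Kcnj8, a potassium channel gene of pericytes, fell in HFD against ND (log2 -1.28, limma adjusted p = 0.00403). Cnn1, of the same list, rose (log2 1.01, limma adjusted p = 0.0271). Immediate-early and heat-shock genes, 15 in number, were unevenly spread, at 10026, 2080 and 5117 TPM in ND replicates 1 to 3, 1961 to 2178 TPM in sHFD and 7013 to 11531 TPM in HFD. The part of these differences in the retinoid results was not tested. In bulk RNA, fewer cells of a type and less RNA per cell cannot be told apart.

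Among the enzymes that make retinoic acid, Aldh1a2 was the most abundant and the only ALDH1A gene of the 3 that passed a test. Its level was 38.0, 78.8 and 66.6 TPM in ND replicates 1 to 3, 68.9, 96.1 and 88.6 TPM in sHFD, and 31.6, 30.9 and 33.3 TPM in HFD. The HFD libraries lay closely together and below every other library, and ND replicate 1 lay nearer to them than to the other ND libraries. Aldh1a2 fell in HFD against sHFD (log2 -1.36, SE 0.23, limma adjusted p = 0.00188), a call kept in all 18 alternative fits. It also fell in HFD against ND (log2 -0.86, SE 0.23, limma adjusted p = 0.0352). That call was lost without HFD replicate 1, 2 or 3 (adjusted p = 0.099, 0.13 and 0.0502), without ND replicate 2 or 3 (0.112 and 0.145), and without sHFD replicate 3 (0.0577). It was also lost with median-ratio scaling (0.0509), quantile normalization (0.0589), no filter on low values (0.0698) and only both diets in the fit (0.0755). Without ND replicate 1 the difference was -1.16 (adjusted p = 0.00113).

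Epicardial genes are given beside Aldh1a2, and their part in its level was not tested. Of 10 such genes, 1 passed as higher and 0 as lower in HFD against ND, beside 1.28% and 9.59% of all genes. The summed TPM of 10 such genes (Wt1, Tbx18, Upk3b, Upk1b, Msln, Lrrn4, Krt19, Bnc1, Rspo1 and Gpm6a, with Aldh1a2 left out) was 325 to 425 in ND, 274 to 490 in sHFD and 528 to 544 in HFD, and none was at 0 in any library. Their median log2 difference in HFD against ND was 0.33, beside -0.14 for all genes, with 9 of the 10 differences above 0. Upk1b, a uroplakin of the mesothelium, passed as higher (log2 0.80, SE 0.23, limma adjusted p = 0.0443), a call lost on leaving out any HFD library, ND replicate 2 or 3, or sHFD replicate 2 (adjusted p = 0.0538 to 0.16). It was also lost without the variance trend (0.051) and with no filter on low values (0.081). Wt1, the epicardial transcription factor, was 47.6, 33.1 and 28.6 TPM in ND and 36.7, 43.0 and 57.8 TPM in HFD, with overlapping libraries.

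**Figure D2:**
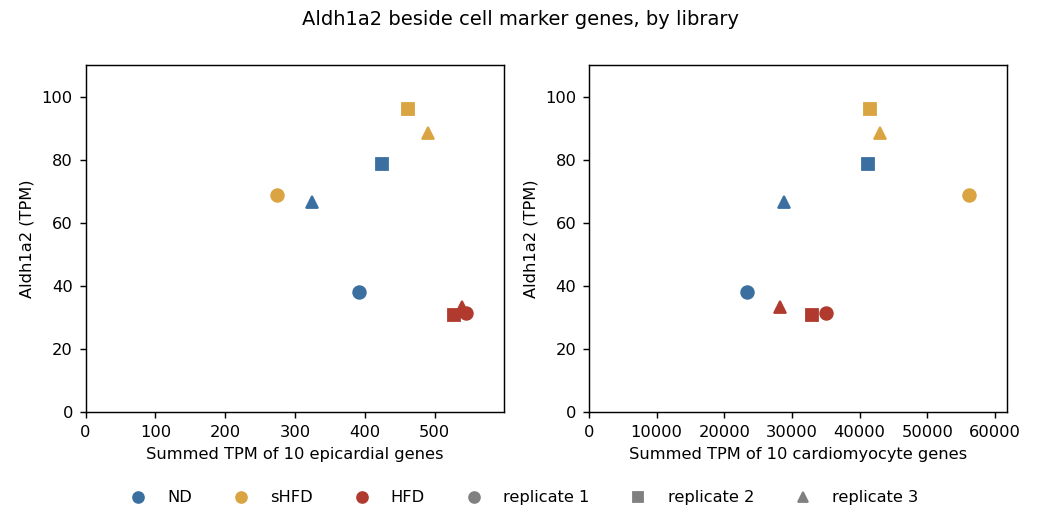
Aldh1a2 (TPM, vertical axis) against the summed TPM of 10 epicardial genes (left) and 10 cardiomyocyte genes (right) in each of the 9 libraries, with colour for diet and shape for replicate. The HFD libraries have the lowest Aldh1a2 levels and the highest epicardial sums, 528 to 544 TPM, and a link was not tested. Their cardiomyocyte sums, 28156 to 34992 TPM, lie below those of sHFD, 41502 to 56164 TPM, and within the ND range. ND replicate 1, at 23396 TPM, has the lowest cardiomyocyte sum and the lowest Aldh1a2 level of its diet. It also has the highest sum of immediate-early and heat-shock genes of its diet, 10026 TPM (not drawn). The part of either sum was not tested.

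Aldh1a1 and Aldh1a3, the other ALDH1A enzymes, showed no call. Aldh1a1 was 18.1, 16.7 and 34.8 TPM in ND, 20.1, 20.7 and 21.4 TPM in sHFD, and 11.4, 11.9 and 25.5 TPM in HFD. In both ND and HFD replicate 3 was well above the other libraries, and the diets overlapped. The HFD against ND difference of Aldh1a1 was -0.51 with a 95% interval from -1.17 to 0.15 (limma adjusted p = 0.283). It passed in HFD against sHFD only without HFD replicate 3 (log2 -0.78, adjusted p = 0.0493, against -0.43 and 0.295 with all libraries). Aldh1a3 was low, at 2.02, 3.86 and 3.58 TPM in ND, 4.58, 5.78 and 5.07 TPM in sHFD, and 3.22, 3.70 and 2.49 TPM in HFD. The sHFD libraries of Aldh1a3 lay above all others, with a difference of 0.59 from ND (95% interval 0.09 to 1.09, adjusted p = 0.672). HFD lay below sHFD by a log2 of -0.58 (adjusted p = 0.0698), and this passed without ND replicate 1 (adjusted p = 0.0311) and with only both diets in the fit (0.0329).

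Dhrs3, which returns retinaldehyde to retinol, was 66.0, 48.6 and 51.0 TPM in ND, 47.2, 49.2 and 46.4 TPM in sHFD, and 36.4, 35.7 and 47.1 TPM in HFD. The ND and HFD libraries did not overlap, as in 27.9% of all genes, but ND replicate 2 and HFD replicate 3 were close. The difference was -0.46 (95% interval -0.83 to -0.10, limma adjusted p = 0.0913), and without HFD replicate 3 it was -0.59 (adjusted p = 0.0464). Crabp2, the carrier, was scarce: 3.79, 1.88 and 2.79 TPM in ND, 1.89, 1.48 and 0.56 TPM in sHFD, and 2.63, 2.92 and 3.02 TPM in HFD. Crabp2 was higher in HFD than in sHFD (log2 0.79, SE 0.26, limma adjusted p = 0.0363) and near ND (log2 0.04, 95% interval -0.53 to 0.61). The sHFD call of Crabp2 was lost without HFD replicate 1, 2 or 3 (adjusted p = 0.0666, 0.0957 and 0.0818), without sHFD replicate 2 or 3 (0.0586 and 0.165), and with no filter on low values (0.0541).

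Rara and Rarb, both receptor genes among the 9, showed no call. Rara, the receptor alpha gene, was 70.8, 43.5 and 44.7 TPM in ND, 43.6, 46.5 and 37.6 TPM in sHFD, and 57.3, 50.4 and 63.5 TPM in HFD. Every HFD library exceeded every sHFD library, as 16.6% of all genes did, and ND replicate 1 was the highest of all. The HFD against sHFD difference of Rara was 0.42 (95% interval -0.01 to 0.84, limma adjusted p = 0.116). It passed with median-ratio scaling (log2 0.58, adjusted p = 0.0345), with only both diets in the fit (0.0477) and without ND replicate 1 (0.0412). Rarb, the receptor beta gene, was 11.9, 24.8 and 15.8 TPM in ND, 12.3, 18.3 and 15.6 TPM in sHFD, and 12.3, 12.7 and 15.1 TPM in HFD. The diets overlapped in every pair, and the HFD against ND difference of Rarb was -0.31 (95% interval -0.84 to 0.22, adjusted p = 0.418).

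Of the enzymes that remove retinoic acid, Cyp26a1 fell the most. It was 9.45, 8.77 and 14.7 TPM in ND, 6.41, 5.17 and 4.31 TPM in sHFD, and 0.93, 1.01 and 3.93 TPM in HFD. Every ND library exceeded every sHFD library and every sHFD library exceeded every HFD library, an order that 33 of the 13655 genes (0.242%) showed, while 7 genes (0.0513%) showed the reverse. HFD replicate 3, at 3.93 TPM, was close to sHFD replicate 3, at 4.31 TPM, while the other HFD libraries were near 1 TPM. The mean went from 11.0 ± 3.26 TPM in ND to 5.30 ± 1.06 TPM in sHFD and 1.96 ± 1.71 TPM in HFD (SD, n = 3 each).

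Cyp26a1 fell in HFD against ND (log2 -2.13, SE 0.33, limma adjusted p = 0.00755) and in HFD against sHFD (log2 -1.22, SE 0.33, limma adjusted p = 0.0146). The first call was lost without HFD replicate 2 (adjusted p = 0.0535) and without ND replicate 3 (0.0553), with differences of -1.92 in both. The second was lost without HFD replicate 1 or 2 (0.0584 and 0.0677), without sHFD replicate 1 (0.0563) and under quantile normalization (0.0546). Without HFD replicate 3 the differences were -2.57 and -1.66. Against ND, sHFD differed by -0.91 (95% interval -1.63 to -0.19) with an adjusted p of 0.672 and an unadjusted limma p of 0.0169.

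Cyp26b1, the other CYP26 gene that could be tested, had a smaller difference. It was 5.49, 4.72 and 4.22 TPM in ND, 2.85, 3.07 and 2.94 TPM in sHFD, and 2.14, 1.79 and 3.70 TPM in HFD. All ND libraries lay above all sHFD and HFD libraries, and sHFD and HFD overlapped. The HFD against ND difference of Cyp26b1 was -0.74 (SE 0.23, limma adjusted p = 0.0524), just above the threshold, and it passed without HFD replicate 3 (log2 -0.97, adjusted p = 0.0183), without the variance trend (0.0379) and with a pseudocount of 5 (0.0486). The sHFD against ND difference was -0.55 (adjusted p = 0.672). Cyp26c1, the third gene of the family, lies next to Cyp26a1 on chromosome 19 (37685112 to 37693320 against 37697738 to 37701536, 1-based GRCm38). It was at 0.20 to 0.31 TPM in ND, 0.18 to 0.32 TPM in sHFD and 0 to 0.13 TPM in HFD, too low to be tested.

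**Figure D3:**
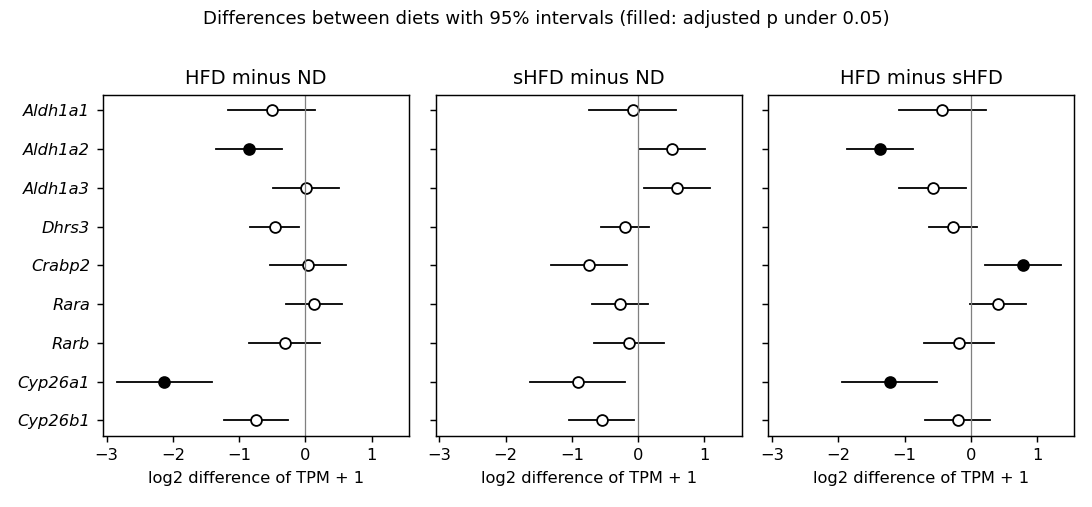
Log2 differences of TPM + 1 (horizontal axes) of the 9 retinoid genes in the 3 comparisons, with 95% intervals from limma and filled points for an adjusted p under 0.05. Cyp26a1 and Aldh1a2 are filled and below 0 in both comparisons with HFD, Crabp2 is filled and above 0 in HFD minus sHFD, and no point is filled in sHFD minus ND.

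Cyp26a1 and Rarb were the members whose promoter windows held a direct repeat of the kind that RAR and RXR receptors bind, and they are shown because 1 of them fell while the other had no call. RefSeq promoter windows (GRCm38.p6, 250 bases before to 50 after a start) were at hand for 7 of the 9 members, 13 windows in all, with Crabp2 and Aldh1a3 unmatched. Both strands were searched for a pair of cores in the same orientation with 5 bases between them. A core was the consensus AGGTCA, the form AGTTCA, the form GGGTCA, or the form GGTTCA. Both cores of the known Rarb element and its spacing were among those searched, so the Rarb match was fixed by that choice and the share over all windows is no test of it. The Cyp26a1 pair repeats the core AGTTCA of that element at the same spacing. Cyp26a1 is also a known target gene, so the share is no test of its match either. Such a pair occurred in 32 of 32851 windows of all genes (0.0974%). Pairs with 1 or 2 bases between, made of the same cores, occurred in 0.222% and 0.268% of windows and in none of the members' windows. The elements are printed 5′ to 3′ with 6 flanking bases on each side and the cores in capitals.
Rarb: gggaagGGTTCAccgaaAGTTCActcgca
Cyp26a1: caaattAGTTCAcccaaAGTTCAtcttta

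The Rarb stretch is chr14:16575507-16575535, minus strand, the strand of the gene, and its pair ends 37 bases before the RefSeq start. In GENCODE M21, 2 of the 35 Rarb exons overlap the pair and 4 of the 7 Rarb transcripts span it. Some of these transcripts begin far upstream, at 16819156 and 16819005. The Rarb level is for the whole gene, so it does not single out transcripts from the start beside the pair. The Cyp26a1 stretch is chr19:37697770-37697798, minus strand, opposite to the gene, and its pair ends 16 bases before the RefSeq start of the window and before the start of both GENCODE M21 transcripts, but inside the RefSeq gene, whose outermost start is 37697738. Counted from the 5′ end of the 17-base Rarb element, the Cyp26a1 element differs by G1A and G9C. A match in letters is a description of the window and shows no binding. The windows of Aldh1a1, Aldh1a2, Dhrs3, Rara and Cyp26b1 held no pair of these letters.

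In order of level, Aldh1a2, Dhrs3 and Rara led in ND with means of 61.2, 55.2 and 53.0 TPM, and their libraries overlapped. Aldh1a1, Rarb and Cyp26a1 followed at 23.2, 17.5 and 11.0 TPM, each overlapping its neighbour, and Cyp26b1, Aldh1a3 and Crabp2 came last at 4.81, 3.15 and 2.82 TPM. In sHFD Aldh1a2 led alone at 84.5 ± 14.1 TPM (SD, n = 3). In HFD Rara led at 57.1 ± 6.56 TPM, before Dhrs3 at 39.7 and Aldh1a2 at 31.9 TPM, with no overlap between these neighbours. Cyp26a1 was last in HFD, where its libraries overlapped those of Cyp26b1. Within HFD, 8 of the 9 members were highest in replicate 3, all but Aldh1a3, beside 61.1% of all genes tested.

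In sHFD against ND, the 9 members gave 0 calls with limma and 5 at an unadjusted p under 0.05, beside 7.36% of all genes at that level. These were Crabp2, Cyp26a1, Aldh1a3, Cyp26b1 and Aldh1a2, with differences of -0.74, -0.91, 0.59, -0.55 and 0.51. No other tool was run, and no member passed in any of the 18 alternative fits. The median difference of the 9 members was -0.20 in this comparison and 0.00 for all genes (0.0010). In HFD against ND it was -0.46 beside -0.14, and in HFD against sHFD -0.27 beside -0.16.

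Other genes of the pathway, in 4 lists, held 7 calls in HFD against ND, 6 lower and 1 higher, where 9.59% of all genes were lower and 1.28% higher. Of 9 tested genes for uptake, storage and carriage of retinoids, 2 were lower in HFD than in ND and 0 higher. These were Dgat1, an acyltransferase of triglyceride and retinyl ester synthesis, at 27.0 ± 3.79 TPM under ND and 16.2 ± 3.35 TPM under HFD (log2 -0.71, limma adjusted p = 0.0352), and the carboxylesterase gene Ces1d, at 6.48 ± 1.76 and 2.71 ± 1.22 TPM (log2 -1.04, limma adjusted p = 0.0309). Of 14 other retinol and retinaldehyde enzymes 1 was lower, Rdh5, a retinol dehydrogenase, at 4.15 ± 0.55 TPM under ND and 1.83 ± 0.63 TPM under HFD (log2 -0.88, limma adjusted p = 0.0318). Of 14 receptors and cofactors, Rarg, the receptor gamma gene, was lower, at 40.2 ± 3.49 and 23.4 ± 5.49 TPM (log2 -0.78, limma adjusted p = 0.0218), and the coactivator gene Crebbp higher (log2 0.85, limma adjusted p = 0.0478). Of 20 retinoic acid responsive genes, Hic1, a transcriptional repressor, was lower, at 36.3 ± 10.5 and 14.2 ± 0.43 TPM (log2 -1.25, limma adjusted p = 0.00988), and so was Ret, a receptor tyrosine kinase (log2 -0.83, limma adjusted p = 0.0438). All 7 calls were lost without HFD replicate 2 and without ND replicate 3. With a library left out, Hic1 passed in 7 of 9 fits, Rarg in 6, Rdh5 and Ces1d in 4, Dgat1 and Ret in 3, and Crebbp in 1, without ND replicate 1. With only both diets in the fit, the Hic1 call alone was left, the others having adjusted p of 0.0593 to 0.102. Quantile normalization ended the calls of Dgat1, Ces1d, Rdh5, Rarg and Ret (adjusted p = 0.0511 to 0.0695), and no filter on low values those of Dgat1, Ces1d, Rdh5, Ret and Crebbp (0.0584 to 0.0911). A pseudocount of 5 ended the calls of Ret (0.073) and Crebbp (0.0516), and leaving out the variance trend that of Crebbp (0.058).

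Several further pathway genes had no call in HFD against ND. Rxra and Rxrb, the main RXR partners of the receptors, were 66.8 to 78.2 and 49.2 to 51.2 TPM in ND and 55.9 to 65.0 and 34.1 to 42.5 TPM in HFD (limma adjusted p = 0.328 and 0.175). Rdh10, the retinol dehydrogenase of embryonic retinoic acid synthesis, stood at 16.5 ± 3.34 TPM under ND and at 24.3 ± 3.07 TPM under HFD (log2 0.55, limma adjusted p = 0.0824). Tgm2, a transglutaminase, was 299 ± 14.7 and 325 ± 38.6 TPM. Hoxa5, a homeobox gene, was 7.15, 0.79 and 2.76 TPM in ND and 6.75, 6.27 and 11.8 TPM in HFD, with ND replicate 1 inside the HFD range (limma adjusted p = 0.0727). The retinol receptor gene Stra6, at 0.12 to 0.38 TPM, was too low to be tested.

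In HFD against sHFD the pathway lists held calls in both directions, as did all genes, with 23.9% lower and 10.3% higher. Uptake and carrier genes had 2 of 9 lower, Dgat1 and Rbp7, a retinol-binding protein gene that went from 127 ± 11.7 TPM in sHFD to 56.1 ± 7.76 TPM in HFD (log2 -1.17, limma adjusted p = 0.00352). Retinol and retinaldehyde enzymes had 5 of 14 lower and 3 higher. Rdh14 went from 49.0 ± 1.82 to 21.5 ± 2.72 TPM (log2 -1.16, limma adjusted p = 0.00567), and Rdh10 from 14.6 ± 1.89 to 24.3 ± 3.07 TPM (log2 0.70, limma adjusted p = 0.0155). The Rdh10 call was lost without HFD replicate 3 (adjusted p = 0.0511) and without sHFD replicate 1 (0.0697). Receptors and cofactors had 4 of 14 lower, among them Rarg (log2 -0.76, adjusted p = 0.0083) and Rxrg (log2 -0.91, adjusted p = 0.0103), and 4 higher, among them Crebbp and Nrip1, which encode cofactors of nuclear receptors (log2 1.17 and 1.19). Retinoic acid responsive genes had 2 of 20 lower, Hic1 and Ret, and 5 higher. Hoxa5 rose from 0.93 ± 0.26 to 8.28 ± 3.07 TPM (log2 2.23, limma adjusted p = 0.00281). Dgat1, Rbp7, Rdh14, Rarg, Rxrg, Crebbp, Nrip1, Hic1, Ret and Hoxa5 kept their calls whichever of the 9 libraries was omitted. The immediate-early and heat-shock genes were 15 of 15 higher in the same comparison, beside 10.3% of all genes, while these calls went both ways. The part of those genes in the calls was not tested.

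**Figure D4:**
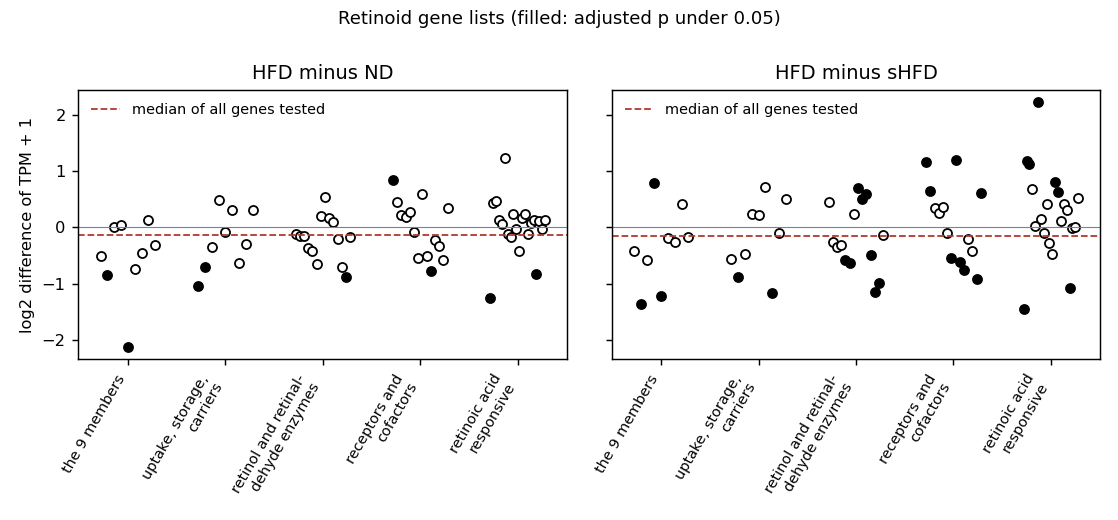
Log2 differences of TPM + 1 (vertical axis) for each tested gene of the 9 members and of the 4 other retinoid lists, in HFD minus ND (left) and HFD minus sHFD (right), filled for an adjusted p under 0.05. The dashed line is the median of all genes tested (-0.14 and -0.16), Cyp26a1 is the lowest point on the left, and Hoxa5 the highest on the right.

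The genes with the most similar profiles were sought among 10943 genes averaging 5 TPM or more, by the root mean square difference of centred log2(TPM + 1) over the 9 libraries. Nearest to Cyp26a1 were Cldn11, a claudin of tight junctions, Vtn, the matrix glycoprotein vitronectin, and Prelp, a matrix proteoglycan (differences of 0.33, 0.33 and 0.34). Cldn11 was 8.26, 9.56 and 13.5 TPM in ND, 5.54, 7.00 and 4.97 TPM in sHFD, and 1.92, 1.99 and 6.95 TPM in HFD, with HFD replicate 3 again the highest of its diet. Nearest to Aldh1a2 were Ttpal, Desi1 and Uso1, a vesicle tethering factor (0.06, 0.10 and 0.10), and nearest to Dhrs3 were Sema6a, a semaphorin, Eml3 and Fgd5 (0.06, 0.06 and 0.07). With a pseudocount of 5, 1 of the 3 genes nearest to Aldh1a2 was the same.

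**Figure D5:**
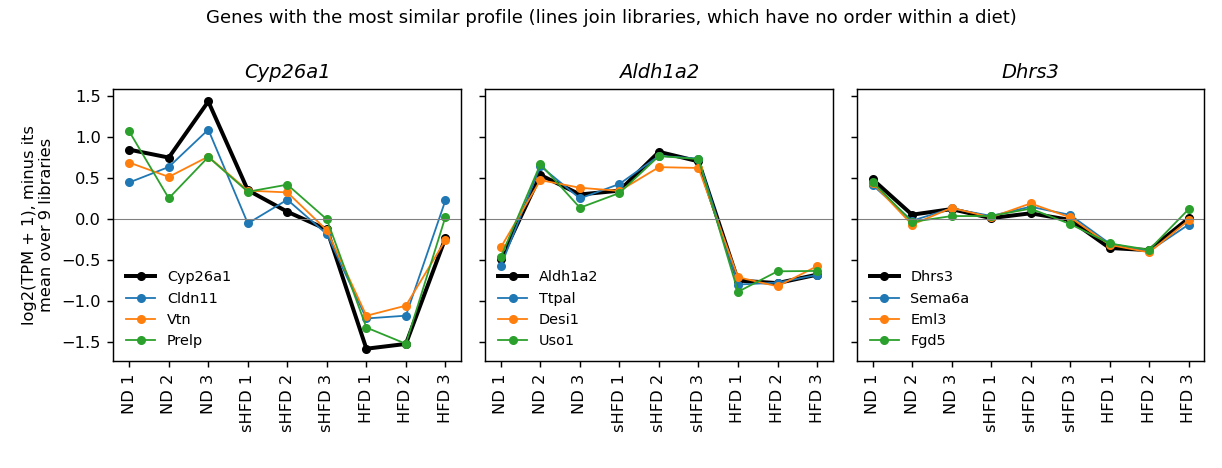
Log2(TPM + 1) minus its mean over the 9 libraries (vertical axis) in each library for Cyp26a1, Aldh1a2 and Dhrs3 (black) and the 3 genes most similar to each (colours), with lines only to guide the eye. The Cyp26a1 group drops from ND to HFD replicates 1 and 2, and the Aldh1a2 group is low in ND replicate 1 and in all HFD libraries.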

How the data were processed

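The authors deposited 1 table of TPM values for 18738 genes in 9 libraries, and each column sums to about 1000000 TPM. RSEM 1.3.1 and GRCm38 are named, without a role, in the submitters' processing notes; messenger RNA was isolated from total RNA, per the labels' protocols. The aligner is not given in the sources used here, nor is the annotation. Columns named CON, MID and HIGH were read as ND, sHFD and HFD with their replicate numbers. No library pair was identical. Nothing says that libraries of a diet are separate litters or animals. The p-values set each difference against the spread between these libraries only, and that spread may be technical.

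Values were taken as log2(TPM + 1), and the 13655 genes averaging 1 TPM or more, all 9 members included, were fitted in limma 3.58.1 (R 4.3.3) with diet as the factor, all 9 libraries, 6 residual degrees of freedom and a variance trend. P-values are two-sided, Benjamini-Hochberg adjusted over all genes tested, threshold 0.05. An exact permutation test of 3 against 3 could not pass and was not run. The members and lists were chosen with earlier results of these data known. Named were all members, genes of 4 other retinoid lists past the threshold (up to 6 a list and comparison), 16 fixed genes, the 3 nearest profiles of 3 members, and leading cell marker genes; some of these are given as counts only, and some are not reported here. The fit was run on simulated data with independent noise for each gene and library. That setting cannot show how differences between libraries that many genes share affect the calls. Alternatives were the pseudocount (0.1 or 5), the filter (none, or a mean of 5 TPM), median-ratio scaling, quantile normalization, a fit of 2 diets, no variance trend, the replicate number as a block, and leaving out each library. Coordinates are 1-based, from RefSeq (GRCm38.p6) or GENCODE M21 (GRCm38).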

Additional observations from a re-analysis of the deposited data

How the results depend on the processing

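The 2 calls among the 9 retinoid genes in HFD against ND became 1 under median-ratio scaling, quantile normalization, no filter on low values or a fit of only both diets. They became 3 without the variance trend or with a pseudocount of 5, and ranged from 0 to 3 with a library left out. The 3 calls in HFD against sHFD became 2 under quantile normalization, no filter on low values or a filter at a mean of 5 TPM. They became 4 under median-ratio scaling and 5 in the fit of only both diets, and ranged from 1 to 5 with a library left out. The 0 calls in sHFD against ND held throughout. Over all genes, a library left out gave 32 to 3842 calls in HFD against ND (1484 with all; 32 without HFD replicate 2, 39 without ND replicate 3, 127 without HFD replicate 1, 3842 without ND replicate 1), 0 to 360 in sHFD against ND (1 with all), and down to 2696 in HFD against sHFD (4665 with all). With no filter HFD against ND gave 763 calls and with only both diets 420.

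Differences near 0 and without a call changed sign. Under quantile normalization these were Cyp26b1 and Rarb in HFD against sHFD (0.11 and 0.092) and Meis1 in HFD against ND (0.12), and under median-ratio scaling Meis1 in HFD against ND (0.13). With a library left out, sHFD against ND ranged from -0.27 to 0.24 for Aldh1a1 (sign turned without ND replicate 3) and from -0.36 to 0.14 for Rarb (ND replicate 2 or sHFD replicate 1). HFD against ND ranged from -0.20 to 0.14 for Aldh1a3 (HFD replicate 1 or 2, or ND replicate 1) and from -0.15 to 0.22 for Crabp2 (ND replicate 2). It ranged from -0.022 to 0.22 for Rarres2 (HFD replicate 1) and from -0.18 to 0.15 for Meis1 (HFD replicate 1 or 2, or ND replicate 2). The cause was not tested. The median of all genes in HFD against ND was -0.14 as deposited and 0.0076 under median-ratio scaling.

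The labels do not say whether the replicate number marks a shared litter or day. Same-numbered deviations from the diet means correlated from -0.287 to 0.413, and not every library did so best with its own number. With 3 libraries a diet, these correlations cannot show whether the numbers pair the libraries. With the replicate number as a block the retinoid calls were 2 in HFD against ND, 0 in sHFD against ND and 3 in HFD against sHFD, and the Crebbp call in HFD against ND was lost (adjusted p = 0.0512). Read depth is unknown, which limits the genes near 1 TPM most, Crabp2 and the HFD values of Cyp26a1 among them.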

Other observations

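Summed levels and shares within the families are given as values without a test. Aldh1a1, Aldh1a2 and Aldh1a3 together summed to 58.2, 99.4 and 105 TPM in ND, 93.6, 123 and 115 TPM in sHFD, and 46.2, 46.5 and 61.2 TPM in HFD, so that ND replicate 1 lay within the HFD range. Aldh1a2 made up 63.4% to 79.3% of that sum in ND, 73.6% to 78.4% in sHFD and 54.3% to 68.4% in HFD, and ND overlapped both other diets. Cyp26a1 and Cyp26b1 together summed to 14.9, 13.5 and 19.0 TPM in ND, 9.26, 8.24 and 7.25 TPM in sHFD, and 3.07, 2.80 and 7.63 TPM in HFD. Cyp26a1 made up 63.3% to 77.7% of that sum in ND, 59.4% to 69.2% in sHFD and 30.3% to 51.5% in HFD. For Cyp26a1 the ND and sHFD shares overlapped, and HFD lay below both. Rara made up 56.7%, 41.6% and 43.4% of the summed level of Rara, Rarb and Rarg in ND, 40.9% to 46.1% in sHFD and 58.6% to 63.8% in HFD. The high share in ND replicate 1 stood beside its 10026 TPM of immediate-early and heat-shock genes, and the part of the latter was not tested.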
